A study of Mus musculus with 14 samples.

Results

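The Wnt system was followed in sorted cells of the embryonic mouse cortex through 54 genes, of 18193 with a probe set of their own on the array. They were chosen by symbol, as Wnt ligands, their receptors, the proteins that secrete or modulate the ligands, the Tcf/Lef factors and genes of the feedback loop. Each gene was read from its brightest probe set on average over the 14 arrays, out of 114 probe sets in all. The cells were neocortical cells of CD1 embryos whose progenitors had received a plasmid by in utero electroporation at E14.5, a method in which pulses of current carry injected DNA into cells that line the brain ventricle. CtrlGFP cells carried a vector with GFP, and Fezf2GFP cells a vector with Fezf2 as well, the zinc finger regulator that specifies subcerebral projection neurons. GFP-positive cells were collected by FACS after 24 h (3 arrays per vector) or 48 h (4 arrays per vector), which gives 4 groups. All 4 groups were electroporated and none was left without a vector; the sources used here do not give the promoter of the vectors or say whether embryos were pooled for an array. The series asks what Fezf2 changes in progenitors that mainly produce upper-layer neurons at this stage.

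Wnt proteins are lipid-modified secreted ligands. Porcn attaches the lipid and Wls carries the ligand to the cell surface, where it binds a Frizzled receptor (Fzd) together with Lrp5 or Lrp6. In the canonical branch this stabilises beta-catenin, which acts with Tcf/Lef factors on target genes, among them Axin2, Nkd1, Apcdd1 and Notum, which dampen the pathway in return. Sfrp and Dkk proteins are secreted modulators that mostly lower Wnt signalling, and R-spondins raise it. In the developing cortex the pathway is known for its part in keeping progenitors dividing, in patterning from the dorsal midline and in axon growth.

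Values are on the log2 scale, so that a difference of 1 is a doubling, and a level of 4 was taken as the dim level near background. Of the 54 genes 27 lay above it on at least 3 arrays and were tested; 23 of these were above it on all 14 arrays. The other 27 were not tested. Wnt6 was above the dim level on 2 arrays (4.41 in CtrlGFP 24 h replicate 1 and 4.07 in CtrlGFP 48 h replicate 2), and the remaining 26 on none of the 14. Among the ligands 14 of 19 were not tested, namely Wnt1, Wnt2, Wnt2b, Wnt3a, Wnt4, Wnt6, Wnt8a, Wnt8b, Wnt9a, Wnt9b, Wnt10a, Wnt10b, Wnt11 and Wnt16. Of the receptors Fzd4, Fzd10 and Lrp5 were dim, and of the modulators Dkk1, Dkk4, Notum, Rspo1, Rspo2, Rspo4, Sfrp4 and Sfrp5. Lef1, the Tcf/Lef factor often used as a marker of canonical signalling, lay between 2.32 and 2.59 on all 14 arrays, and Nkd2 between 2.90 and 3.22. Tcf7 was not analysed here. A dim value shows only that the probe set gave no signal above this level.

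Within a group, pairs of arrays had correlations from 0.942 to 0.993. CtrlGFP 24 h replicate 1 and CtrlGFP 48 h replicate 2 had the highest medians (3.45 or more, against at most 3.31 on the others) and stood apart together, their deviations correlating at 0.593. The probe set of Fezf2 was lower, not higher, on the arrays labelled Fezf2GFP at 24 h (log2 fold change -1.86, SE 0.38, limma adjusted p = 0.0324). The arrays overlapped at 48 h, where the difference was -0.82 (SE 0.33, adjusted p = 0.239). The sources used here do not say whether this probe set detects the vector's transcript, so it checks nothing, and each direction between the vectors rests on the labels. Of the markers of the expected cells, 0 of 8 for radial glia, 0 of 6 for intermediate progenitors and 0 of 6 for immature neurons were dim on all arrays. Of 6 markers of the cortical hem and choroid plexus, a source of Wnt ligands at the dorsal midline, 5 were dim on all 14 arrays, with Wnt3a, Wnt8b and Lmx1a among them. The other, Ttr, a choroid plexus gene, was at 9.95 in Fezf2GFP 24 h replicate 3, 9.38 in CtrlGFP 48 h replicate 3, 8.32 in Fezf2GFP 48 h replicate 3 and 4.54 in Fezf2GFP 48 h replicate 2, and dim on the remaining 10 arrays. Dim on all arrays were also 4 of 5 microglial, 4 of 5 endothelial, 5 of 6 pericyte and meningeal and 3 of 5 Cajal-Retzius markers. The exceptions included C1qb (4.30 to 6.10 over the 14 arrays), Cldn5 (3.36 to 6.39), Pdgfrb (6.77 to 10.03) and Reln (6.70 to 11.56). Reln, which Cajal-Retzius cells secrete, was 2.48 higher with Fezf2GFP at 48 h without overlap (SE 0.63, limma adjusted p = 0.0508). Ebf3, the other Cajal-Retzius marker tested, overlapped there and differed by 0.37 (SE 0.33, adjusted p = 0.673). The mean level of the radial glia list at 48 h was 10.42 to 11.07 on the CtrlGFP arrays and 10.90 to 11.69 on the Fezf2GFP arrays. At 24 h it was 11.53 to 11.88 and 11.87 to 12.04. Of its 8 genes only Nes passed between the vectors at 48 h, higher with Fezf2GFP (1.30, SE 0.21, limma adjusted p = 0.00472). Its other genes differed there by 1.47 (Hes1), 0.83 (Slc1a3), 0.445 (Sox2), 0.165 (Pax6), 0.11 (Fabp7), -0.16 (Vim) and -0.455 (Hes5). Of the 6 intermediate progenitor genes only Gadd45g passed, lower (-1.57, SE 0.25, adjusted p = 0.00441). The others differed by 0.52 (Eomes), 0.125 (Mfap4), -0.002 (Btg2), -0.05 (Insm1) and -0.38 (Neurog2). The mean level of the intermediate progenitor list at 48 h was 11.31 to 11.94 on the CtrlGFP arrays and 10.99 to 11.64 on the Fezf2GFP arrays. That of the GABAergic list was 4.15 to 4.26 against 4.14 to 7.15 at 24 h, and 4.51 to 6.61 against 5.80 to 6.63 at 48 h. For the immature neuron list it was 12.08 to 12.71 against 12.69 to 12.84 at 24 h. At 48 h it was 12.75 to 13.09 against 13.14 to 13.6, without overlap. Of its 6 genes 0 passed at either time. At 48 h these differed by 0.97 (Bcl11b), 0.775 (Tbr1), 0.24 (Tubb3), 0.24 (Dcx), 0.15 (Neurod2) and -0.04 (Neurod6). Bcl11b did not overlap at either time, with a difference of 1.08 at 24 h. The part of these cell types in the results that follow was not tested. In sorted populations more cells of a type and more RNA per cell cannot be told apart.

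Between the vectors, 3 Wnt genes passed the test at 24 h and 6 others at 48 h. At 24 h Wls rose and Fzd8 and Axin2 fell with Fezf2GFP, 3 of 27 tested (11.1%), where 1.06% of all genes tested passed. At 48 h Wnt7b, Wnt7a, Sfrp2, Dkk2 and Dkk3 rose and Fzd1 fell, 6 of 27 (22.2%), against 3.13% of all genes. By direction, the background was 0.806% higher and 0.253% lower at 24 h, and 2.7% higher and 0.427% lower at 48 h. No gene of the set passed at both times, but of the difference between both vector effects, the interaction of vector and time, limma called 0 of 27, against 0.0971% of all genes (0.068% higher and 0.0291% lower); 9 of 27 had an unadjusted p under 0.05. The vector effects at 24 h and 48 h are therefore not shown to differ for any of them in this fit. The median log2 fold change of the 27 was 0.14 at 24 h and 0.47 at 48 h, beside 0.06 and 0.06 for all genes tested. The arrays of both vectors did not overlap for 12 of 27 genes at 24 h (44.4%, against 19.6% of all genes) and for 10 at 48 h (37.0%, against 9.07%).

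**Figure D1:**
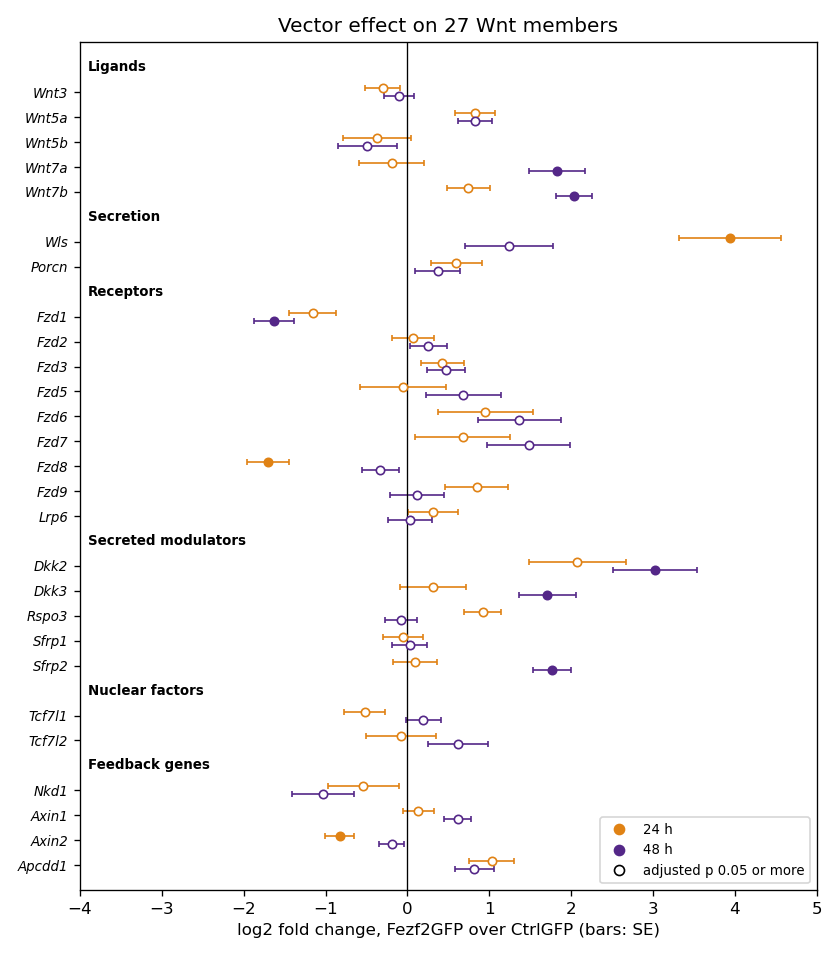
Log2 fold change of the arrays labelled Fezf2GFP over those labelled CtrlGFP for the 27 tested Wnt genes by role, at 24 h (orange, n = 3 against 3) and 48 h (purple, n = 4 against 4). Bars are limma standard errors, filled points passed at an adjusted p under 0.05. Wls at 24 h (3.94) lies farthest to the right and Fzd8 at 24 h (-1.70) farthest to the left.

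**Figure D2:**
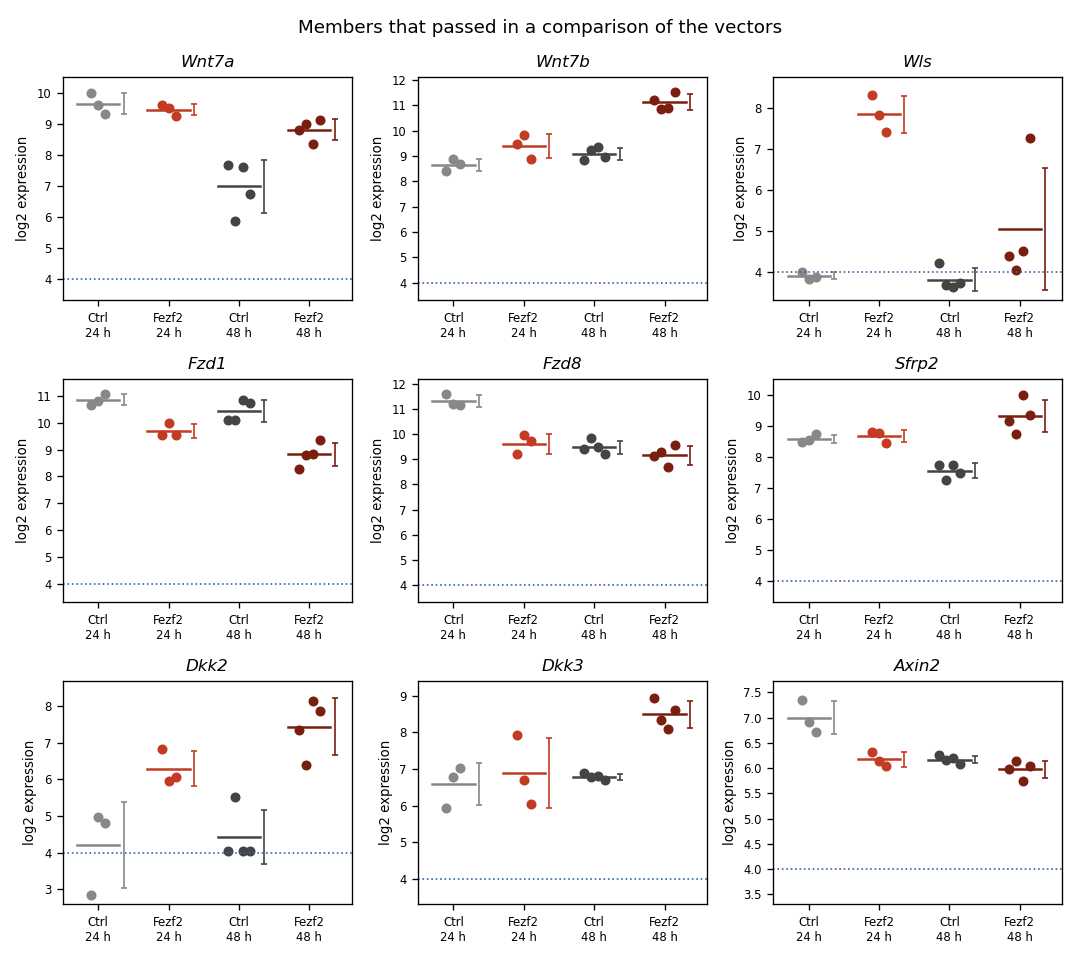
Level on each array (points, log2 expression) of the 9 genes that passed between the vectors, with group means (lines) and standard deviations (bars) for n = 3 arrays per vector at 24 h and n = 4 at 48 h. The dotted line is the dim level of 4. Dkk2, Wnt7b and Sfrp2 stand apart at 48 h, and Wls at 24 h.

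Among these 9 genes, 6 have an entry in the RefSeq table of promoters used here (GRCm38.p6). The bases just before the outermost annotated start of the gene are shown for the 4 whose window lies before that start, so that a reader can see the proximal promoters of genes that moved between the vectors. Capitals mark the core of Tcf/Lef sites, searched as CTTTGA or CTTTGT on both strands; the motifs differ in the last base and do not overlap each other. Each is written 5′ to 3′ on the strand of the gene.
Wnt7a, chr6:91411354-91411603, minus strand: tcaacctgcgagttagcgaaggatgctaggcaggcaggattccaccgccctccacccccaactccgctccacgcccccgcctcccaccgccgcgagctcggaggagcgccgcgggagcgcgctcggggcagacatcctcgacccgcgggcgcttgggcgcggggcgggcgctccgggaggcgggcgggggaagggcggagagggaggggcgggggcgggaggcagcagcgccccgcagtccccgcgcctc
Wls, chr3:159839400-159839649, plus strand: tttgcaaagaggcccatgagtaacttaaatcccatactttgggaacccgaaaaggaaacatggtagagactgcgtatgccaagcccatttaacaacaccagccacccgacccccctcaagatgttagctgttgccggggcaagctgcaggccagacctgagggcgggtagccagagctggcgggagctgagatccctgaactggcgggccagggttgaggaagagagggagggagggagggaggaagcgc
Fzd1, chr5:4758217-4758466, minus strand: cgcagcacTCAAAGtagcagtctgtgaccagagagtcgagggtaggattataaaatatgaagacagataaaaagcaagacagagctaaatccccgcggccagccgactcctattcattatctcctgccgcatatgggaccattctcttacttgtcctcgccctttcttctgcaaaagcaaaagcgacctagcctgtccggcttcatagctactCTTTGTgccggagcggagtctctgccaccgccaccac
Dkk2, chr3:132085042-132085265, plus strand: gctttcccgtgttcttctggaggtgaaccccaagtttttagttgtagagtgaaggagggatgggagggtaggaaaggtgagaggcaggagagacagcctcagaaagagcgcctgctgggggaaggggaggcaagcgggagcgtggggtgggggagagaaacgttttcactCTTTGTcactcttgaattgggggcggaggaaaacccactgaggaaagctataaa
The Fzd1 stretch held 2 matches, the Dkk2 stretch 1, and the other two none. Over windows of 250 bases, 27.6% of 32851 promoters in the table held a match, as did 10 of 41 windows (24.4%) of the 34 Wnt genes listed there. A match describes the letters only.

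Of the 5 tested ligands 2 rose with Fezf2GFP at 48 h and none passed at 24 h. Wnt7b, a ligand of cortical progenitors and deep-layer neurons, stood at 8.41, 8.86 and 8.69 on the CtrlGFP arrays at 24 h and at 9.47, 9.84 and 8.88 with Fezf2GFP. Its 48 h values were 8.86, 9.22, 9.37 and 8.95 with CtrlGFP and at 11.23, 10.85, 10.92 and 11.54 with Fezf2GFP. Every Fezf2GFP array lay above every control at both times, by a narrow margin at 24 h and a wide margin at 48 h. The log2 fold change of Wnt7b was 0.75 at 24 h (SE 0.26, limma adjusted p = 0.315), and the 48 h value was 2.04 (SE 0.23, adjusted p = 0.000332), which is 4.10-fold. From 24 h to 48 h Wnt7b rose by 1.74 with Fezf2GFP (SE 0.24, adjusted p = 0.000777), and the difference with CtrlGFP was 0.44 (SE 0.24, adjusted p = 0.301). The interaction was 1.29 (SE 0.34, adjusted p = 0.442), so that these changes over time are not shown to differ.

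Wnt7a, the closest relative of Wnt7b and a ligand of cortical progenitors, went another way over time. Its levels at 24 h were 10.01, 9.61 and 9.33 with CtrlGFP and 9.60, 9.53 and 9.25 with Fezf2GFP, a difference of -0.19 (SE 0.40, limma adjusted p = 0.888). At 48 h they were 7.68, 5.88, 7.61 and 6.74 with CtrlGFP and 8.79, 8.997, 8.34 and 9.12 with Fezf2GFP, with no overlap. The 24 h arrays of both vectors were alike in range, and the control arrays at 48 h were the low ones, with replicate 2 the lowest. Wnt7a was 1.83 higher with Fezf2GFP at 48 h (SE 0.35, adjusted p = 0.0119). Between the times it fell by 2.67 on the log2 scale with CtrlGFP (SE 0.37, adjusted p = 0.000598), and the difference with Fezf2GFP was -0.65 (SE 0.37, adjusted p = 0.323). A further probe set of Wnt7a that was above the dim level on 14 arrays did not follow, with vector differences of -0.50 at 24 h and -0.17 at 48 h. Over the mean of all its probe sets the 48 h difference of Wnt7a was 0.55 (adjusted p = 0.0747), and with only the groups compared in the fit the adjusted p was 0.0682.

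The other tested ligands did not pass in any comparison. Wnt5a, best known for beta-catenin-independent signalling and axon guidance, stood close to the dim level, at 4.77, 4.50 and 4.55 with CtrlGFP and 5.41, 5.34 and 5.52 with Fezf2GFP at 24 h. At 48 h the values were 4.92, 4.99, 4.47 and 4.44 against 5.50, 4.98, 5.60 and 6.05. The groups did not overlap at 24 h, and at 48 h a single Fezf2GFP array, replicate 2, lay within the control range. The log2 fold changes of Wnt5a were 0.82 (SE 0.24, limma adjusted p = 0.192) and 0.83 (SE 0.21, adjusted p = 0.0547). Without Fezf2GFP 48 h replicate 2 the 48 h difference was 1.01 and passed (adjusted p = 0.0195), as it did with median centring (0.0358) and without both control arrays that stood apart (0.0479). Another probe set of Wnt5a, above the dim level on 14 arrays, had differences of 1.73 and 1.04. Wnt5b, a relative of Wnt5a, stood at 8.92, 8.62 and 8.51 against 8.69, 7.83 and 8.42 at 24 h and at 8.18, 9.47, 8.51 and 7.55 against 8.25, 8.30, 7.95 and 7.26 at 48 h. The vectors overlapped at both times, with differences of -0.37 and -0.49. Wnt3, a canonical ligand, lay near the dim level throughout, at 5.02, 4.19 and 4.15 against 4.22, 4.07 and 4.16 at 24 h and at 4.17, 4.58, 4.24 and 4.16 against 4.17, 4.18, 4.19 and 4.18 at 48 h. Its highest values came from both control arrays that stood apart, and its differences were -0.30 and -0.11.

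Wls, the carrier that all secreted Wnt ligands depend on, rose with Fezf2GFP at 24 h. With CtrlGFP at 24 h it stood at 4.003, 3.83 and 3.88, around the dim level, and with Fezf2GFP at 8.30, 7.82 and 7.40. In the 48 h groups the control levels were 4.21, 3.67, 3.64 and 3.72, and those with Fezf2GFP 4.38, 4.05, 4.51 and 7.26. The 3 Fezf2GFP arrays at 24 h were thus far above the rest, and at 48 h only replicate 4 was near them. The rise at 24 h was 3.94 (SE 0.62, limma adjusted p = 0.00744), a 15.3-fold difference in which 2 of 3 control arrays lay below the dim level, so its size rests on values near background. It passed in 25 of 25 alternative fits, over which it ranged from 2.10, with the mean over probe sets, to 4.16. A second probe set of Wls, above the dim level on 5 arrays, differed by 2.68 at 24 h and 0.62 at 48 h.

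At 48 h the difference of Wls was 1.24 (SE 0.54, adjusted p = 0.289), and 0.51 without Fezf2GFP 48 h replicate 4 (adjusted p = 0.343). From 24 h to 48 h Wls fell by 2.79 on the log2 scale with Fezf2GFP (SE 0.58, adjusted p = 0.00751), and the difference with CtrlGFP was -0.10 (SE 0.58, adjusted p = 0.955). The interaction of Wls was -2.70 (SE 0.82, adjusted p = 0.614). Without Fezf2GFP 48 h replicate 4 it was -3.43 and passed (SE 0.33, adjusted p = 0.00167), and with array weights over all 14 arrays it also passed (-3.18, adjusted p = 0.0206).

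Porcn, the acyltransferase that attaches the lipid, rose over time and did not pass between the vectors. It stood at 7.40, 8.46 and 8.61 with CtrlGFP and at 8.92, 8.73 and 8.62 with Fezf2GFP at 24 h. By 48 h it had reached 9.26, 9.29, 9.28 and 9.44 with CtrlGFP and 10.41, 9.41, 9.34 and 9.60 with Fezf2GFP. Every 48 h array lay above every 24 h array of its vector. With CtrlGFP Porcn rose by 1.16 (SE 0.30, limma adjusted p = 0.0205). The call ended without CtrlGFP 24 h replicate 1, the low array (0.78, adjusted p = 0.0832), or without CtrlGFP 48 h replicate 4 (1.12, adjusted p = 0.0543). With Fezf2GFP the difference was 0.93 (SE 0.30, adjusted p = 0.0589). The differences of Porcn between the vectors were 0.60 and 0.37.

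Of 9 tested receptors 1 fell with Fezf2GFP at each time, Fzd8 at 24 h and Fzd1 at 48 h. Fzd8, a Frizzled of cortical progenitors, stood at 11.61, 11.22 and 11.16 with CtrlGFP at 24 h and at 9.19, 9.98 and 9.71 with Fezf2GFP. At 48 h its levels were 9.42, 9.84, 9.48 and 9.22 with CtrlGFP and 9.12, 9.28, 8.68 and 9.56 with Fezf2GFP. The 3 control arrays at 24 h were the high ones, and the other 3 groups overlapped. Fzd8 was lower by 3.25-fold at 24 h (log2 fold change -1.70, SE 0.26, limma adjusted p = 0.00626) and did not pass at 48 h (-0.33, SE 0.23, adjusted p = 0.554). It fell from 24 h to 48 h with CtrlGFP (-1.84, SE 0.24, adjusted p = 0.000441), while the difference with Fezf2GFP was -0.47 (SE 0.24, adjusted p = 0.264). The interaction of Fzd8 was 1.37 (SE 0.35, adjusted p = 0.366). The fall at 24 h passed in 24 of 25 alternative fits and missed with only the groups compared (adjusted p = 0.0553). The other probe set of Fzd8, above the dim level on 14 arrays, had differences of -1.41 and -0.67.

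Fzd1, another Frizzled receptor, lay lower on the Fezf2GFP arrays at both times without overlap and passed at 48 h. Its levels at 24 h were 10.67, 10.82 and 11.08 with CtrlGFP and 9.54, 9.99 and 9.56 with Fezf2GFP, a difference of -1.16 (SE 0.28) that did not pass (limma adjusted p = 0.0805). At 48 h they were 10.09, 10.11, 10.86 and 10.74 against 8.28, 8.81, 8.84 and 9.36, a difference of -1.63 (SE 0.25, adjusted p = 0.00293). The fall at 48 h passed in 25 of 25 alternative fits, between -1.81 and -0.83. The interaction of Fzd1 was -0.47 (SE 0.38, adjusted p = 0.998), the 2 effects having the same sign. With the replicate number as a block the 24 h difference passed (adjusted p = 0.0476). The Fzd1 level with Fezf2GFP had a log2 fold change over time of -0.87 (SE 0.27, adjusted p = 0.0492), a call that held in 9 of 25 alternative fits. Of the 14 fits without 1 array it held in 4, those without CtrlGFP 48 h replicate 1, 2 or 3 or Fezf2GFP 48 h replicate 4, and without Fezf2GFP 24 h replicate 2 its adjusted p was 0.207.

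Fzd7 and Fzd9 passed only between the times. Fzd7, a Frizzled of early progenitors, stood at 8.74, 8.70 and 8.90 with CtrlGFP at 24 h and at 7.81, 5.18, 7.73 and 7.14 at 48 h. With Fezf2GFP it stood at 9.75, 9.67 and 8.94 and at 7.67, 8.63, 8.20 and 9.27. The fall with CtrlGFP was 1.81 on the log2 scale (log2 fold change -1.81, SE 0.54, limma adjusted p = 0.0447), with replicate 2 at 48 h far below the others. Leaving out both control arrays that stood apart brought it to -1.24 (adjusted p = 0.0863), and the call held in 5 of 14 fits without 1 array, those without CtrlGFP 48 h replicate 1, 2 or 3 or Fezf2GFP 48 h replicate 1 or 4; without CtrlGFP 24 h replicate 3 the adjusted p was 0.118. Between the vectors Fzd7 differed by 0.68 (SE 0.58) and 1.48 (SE 0.50, adjusted p = 0.156). Fzd9 stood at 6.10, 5.50 and 4.27 with Fezf2GFP at 24 h and at 3.38, 3.94, 4.19 and 4.20 at 48 h, and between 3.46 and 4.72 on the control arrays. The fall of Fzd9 with Fezf2GFP passed (log2 fold change -1.37, SE 0.36, adjusted p = 0.0252), with 2 of 4 arrays at 48 h below the dim level. That call ended without Fezf2GFP 24 h replicate 1 (-0.96, adjusted p = 0.112) or 2 (adjusted p = 0.108), or Fezf2GFP 48 h replicate 1 (0.0667) or 2 (0.0539).

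The remaining 5 receptors did not pass in any comparison. Fzd6, which takes part in planar cell polarity, stood at 5.41, 5.85 and 5.70 with CtrlGFP at 24 h and at 8.004, 5.68 and 6.13 with Fezf2GFP, a difference of 0.95 (SE 0.58). At 48 h it differed by 1.37 (SE 0.51, limma adjusted p = 0.199) without overlap, from 5.24, 3.62, 5.90 and 4.95 to 5.99, 6.26, 6.08 and 6.84. Fzd3, a Frizzled needed for the growth of forebrain axon tracts, stood at 11.81, 12.64 and 12.66 against 12.74, 12.86 and 12.79 at 24 h and at 12.43, 11.67, 12.26 and 12.58 against 12.74, 12.47, 12.61 and 12.997 at 48 h. Its differences were 0.43 (SE 0.27), without overlap, and 0.47 (SE 0.23), with overlap. Both further probe sets of Fzd3 above the dim level on 14 arrays differed by 0.11 and 0.245 at 24 h. In the same order, they differed by -0.02 and 0.05 at 48 h. Fzd5, a Frizzled receptor, stood at 7.15, 5.61 and 5.05 against 6.27, 5.79 and 5.59 at 24 h and at 6.65, 7.62, 6.09 and 5.59 against 7.40, 7.37, 6.76 and 7.15 at 48 h. It overlapped at both times, with differences of -0.05 and 0.68. The co-receptor Lrp6 stood at 9.37, 9.02 and 9.58 against 9.57, 9.85 and 9.49 at 24 h and at 9.70, 8.17, 9.24 and 9.32 against 8.91, 9.21, 9.18 and 9.26 at 48 h. It too overlapped, with differences of 0.31 and 0.03, and Fzd2 differed by 0.07 and 0.26. Both further probe sets of Fzd2, above the dim level on 14 arrays, differed by 0.38 and -0.07 at 24 h and by 0.92 and 0.73 at 48 h.

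**Figure D3:**
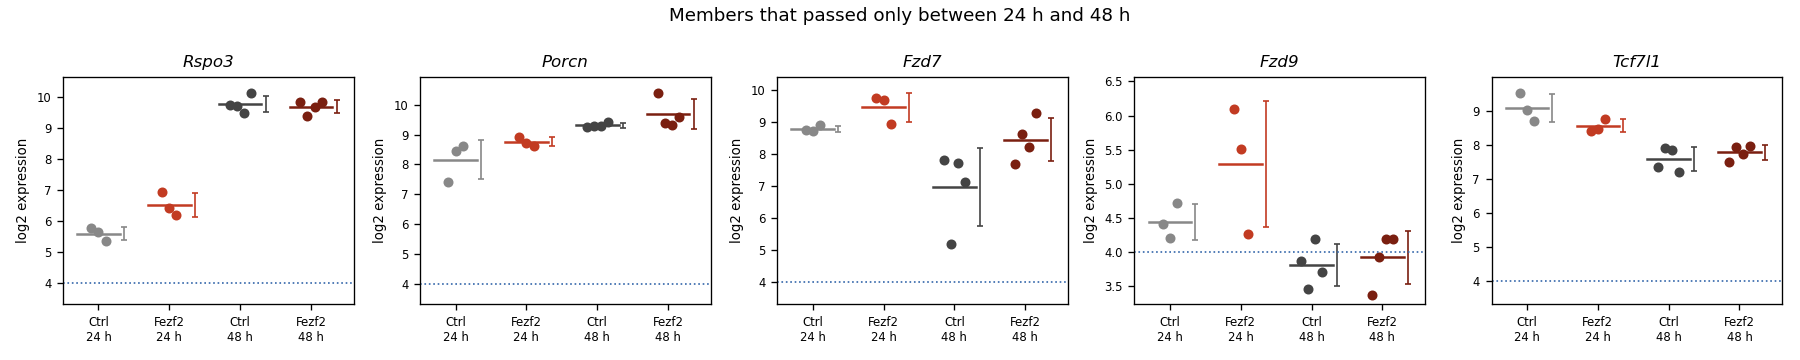
Level on each array (points, log2 expression) of the 5 genes that passed only between 24 h and 48 h, with group means (lines) and standard deviations (bars) for n = 3 arrays per vector at 24 h and n = 4 at 48 h. The dotted line is the dim level of 4. Rspo3 is high on all 8 arrays at 48 h, and CtrlGFP replicate 2 is the low array of Fzd7 at 48 h.

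Of 5 tested modulators 3 rose with Fezf2GFP at 48 h. Sfrp2, a secreted protein with a Frizzled-like domain that binds Wnt ligands, stood at 8.496, 8.56 and 8.74 with CtrlGFP and 8.83, 8.78 and 8.47 with Fezf2GFP at 24 h. By 48 h the values were 7.76, 7.26, 7.74 and 7.49 with CtrlGFP and at 9.18, 8.76, 10.03 and 9.38 with Fezf2GFP. The vectors overlapped at 24 h and did not at 48 h. Sfrp2 differed by 0.10 at 24 h (SE 0.27, limma adjusted p = 0.920) and rose by 1.77 at 48 h (SE 0.23, adjusted p = 0.000923), a call that held in 25 of 25 alternative fits. With CtrlGFP it fell over time (log2 fold change -1.04, SE 0.25, adjusted p = 0.0152); the call ended without CtrlGFP 24 h replicate 3 (-0.97, adjusted p = 0.0607). With Fezf2GFP the difference over time was 0.64 (SE 0.25, adjusted p = 0.127). Its interaction, 1.68 (SE 0.35, adjusted p = 0.173), had the smallest p of the 27 genes. Sfrp1, the related modulator of ventricular zone progenitors, stood at 12.67, 13.22 and 13.49 against 12.97, 13.23 and 13.03 at 24 h and at 12.42, 12.18, 12.75 and 12.70 against 12.58, 12.64, 12.10 and 12.86 at 48 h. The vectors overlapped at both times, with differences of -0.05 and 0.03. The further probe sets of Sfrp1, above the dim level on 13 or 14 arrays, did not share a sign. They differed by -0.83, -0.03, 0.37 and 1.07 at 24 h and, in the same order, by -0.575, 0.002, 0.45 and -0.29 at 48 h.

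Dkk2, a secreted ligand of Lrp5 and Lrp6 that can block the receptor complex, was near the dim level in controls. It stood at 2.85, 4.96 and 4.81 with CtrlGFP and at 6.83, 5.95 and 6.07 with Fezf2GFP at 24 h. The 48 h values were 4.04, 5.52, 4.05 and 4.05 against 7.35, 6.40, 8.15 and 7.86. All Fezf2GFP arrays lay above all controls at both times. The difference of Dkk2 was 2.08 at 24 h (SE 0.60, limma adjusted p = 0.165), and the 48 h value was 3.02 (SE 0.52, adjusted p = 0.00651), which is 8.12-fold. The 48 h rise passed in 25 of 25 alternative fits, between 2.79 and 3.39, and was largest without both control arrays that stood apart.

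Dkk3, a divergent member of the Dickkopf family, stood at 5.94, 6.78 and 7.04 with CtrlGFP and at 7.93, 6.71 and 6.05 with Fezf2GFP at 24 h, with full overlap. Its levels at 48 h were 6.88, 6.78, 6.81 and 6.69 against 8.95, 8.33, 8.09 and 8.62. The differences were 0.31 (SE 0.41, limma adjusted p = 0.817) and 1.71 (SE 0.35, adjusted p = 0.0191). The 48 h call of Dkk3 ended without CtrlGFP 48 h replicate 4 (1.67, adjusted p = 0.0585) or Fezf2GFP 48 h replicate 4 (1.67, adjusted p = 0.0555). With Fezf2GFP Dkk3 rose over time by 1.60 (SE 0.38, adjusted p = 0.0149), which ended without Fezf2GFP 24 h replicate 2 (1.504, adjusted p = 0.0703) or 3 (1.18, adjusted p = 0.087). Its other probe set, above the dim level on 13 arrays, differed by -0.36 at 24 h and 0.67 at 48 h.

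Rspo3, an R-spondin that raises Wnt signalling by keeping Frizzled receptors at the surface, rose over time with both vectors. It stood at 5.77, 5.64 and 5.37 with CtrlGFP and at 6.94, 6.42 and 6.18 with Fezf2GFP at 24 h. At 48 h the values were 9.76, 9.72, 9.50 and 10.14 with CtrlGFP and 9.86, 9.40, 9.70 and 9.85 with Fezf2GFP. The times were wide apart with either vector, and the vectors overlapped at 48 h. With CtrlGFP the rise was 4.19 (SE 0.21, limma adjusted p = 5.12e-07), or 18.2-fold, and with Fezf2GFP 3.19 (SE 0.21, adjusted p = 5.01e-06), or 9.13-fold. Both rises passed in 25 of 25 alternative fits. At 24 h Rspo3 was 0.92 higher with Fezf2GFP without overlap (SE 0.23), which did not pass (adjusted p = 0.0849), and at 48 h the difference was -0.08 (SE 0.20). The interaction was -0.996 (SE 0.30, adjusted p = 0.600).

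Neither tested nuclear factor passed between the vectors. Tcf7l1, a Tcf factor that mainly represses targets in progenitors, stood at 9.52, 9.02 and 8.70 with CtrlGFP and 8.42, 8.48 and 8.77 with Fezf2GFP at 24 h. Those at 48 h were 7.36, 7.91, 7.86 and 7.21 against 7.49, 7.92, 7.73 and 7.98. With each vector all 48 h arrays lay below all 24 h arrays. The fall was 1.49 on the log2 scale with CtrlGFP (SE 0.23, limma adjusted p = 0.00116, passing in 25 of 25 alternative fits) and 0.78 with Fezf2GFP (log2 fold change -0.78, SE 0.23, adjusted p = 0.0468). The call with Fezf2GFP held in 5 of 14 fits without 1 array, those without CtrlGFP 24 h replicate 1 or 3, CtrlGFP 48 h replicate 2 or 4 or Fezf2GFP 48 h replicate 4; without Fezf2GFP 24 h replicate 3 the adjusted p was 0.195. Tcf7l2, the Tcf factor of thalamic and other neurons, stood at 6.68, 6.85 and 6.85 against 6.75, 6.66 and 6.72 at 24 h and at 6.66, 6.76, 6.71 and 6.24 with CtrlGFP at 48 h. Its vector differences were -0.08 (SE 0.43) and 0.62 (SE 0.37, adjusted p = 0.487). Its 4 values with Fezf2GFP at 48 h, 8.44, 6.01, 7.43 and 6.95, lay on both sides of the controls. A second probe set of Tcf7l2, above the dim level on 14 arrays, differed by 0.06 at 24 h and -0.215 at 48 h.

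Of the 4 tested genes of the Axin, Nkd and Apcdd1 group, mostly feedback inhibitors, only Axin2 passed between the vectors, and it fell at 24 h. Axin2, a scaffold of the beta-catenin destruction complex and a common readout of canonical signalling, stood at 7.36, 6.92 and 6.72 with CtrlGFP and 6.33, 6.15 and 6.04 with Fezf2GFP at 24 h. At 48 h it stood at 6.25, 6.15, 6.20 and 6.08 against 5.98, 6.14, 5.75 and 6.04. The control arrays at 24 h were the high ones, as for Fzd8. The difference was -0.83 at 24 h (SE 0.18, limma adjusted p = 0.0468), and the 48 h value was -0.19 (SE 0.16, adjusted p = 0.627), with an interaction of 0.63 (SE 0.24, adjusted p = 0.868). The 24 h call passed in 5 of 25 alternative fits. Of the fits without 1 array it held in 3, those without CtrlGFP 24 h replicate 3, CtrlGFP 48 h replicate 2 or Fezf2GFP 48 h replicate 3, and without Fezf2GFP 24 h replicate 3 its adjusted p was 0.172. Without CtrlGFP 24 h replicate 1, the highest array, the difference of Axin2 was -0.65 (adjusted p = 0.138). The fall of Axin2 over time with CtrlGFP, -0.83 (SE 0.17, adjusted p = 0.00539), passed in 25 of 25; with Fezf2GFP the difference was -0.20 (SE 0.17).

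Apcdd1, a membrane inhibitor of Wnt receptors, had the opposite sign. It stood at 12.04, 11.49 and 11.68 with CtrlGFP and 13.24, 12.78 and 12.27 with Fezf2GFP at 24 h, and at 11.55, 11.76, 11.65 and 11.17 against 12.16, 12.42, 12.82 and 11.99 at 48 h. There was no overlap at either time, and neither difference passed (1.03, SE 0.28, limma adjusted p = 0.122, and 0.82, SE 0.24, adjusted p = 0.0914). Both further probe sets of Apcdd1 that were above the dim level on 14 arrays had differences between 1.03 and 1.13. Nkd1, an inhibitor acting on Dishevelled, stood at 5.92, 5.88, 5.90 and 5.62 with CtrlGFP at 48 h and at 5.12, 4.16, 5.09 and 4.84 with Fezf2GFP. That is a difference of -1.03 without overlap (SE 0.38, adjusted p = 0.194). At 24 h it stood at 5.64, 6.95 and 6.59 against 4.85, 5.95 and 6.76, a difference of -0.54 with overlap. Axin1, the scaffold of the destruction complex that is not a feedback target, stood at 9.45, 9.93 and 9.89 against 9.98, 9.997 and 9.70 at 24 h and at 9.24, 9.66, 9.70 and 9.24 against 10.03, 10.12, 9.93 and 10.21 at 48 h. It overlapped at 24 h (0.14) and not at 48 h, where the difference of 0.62 did not pass (SE 0.17, adjusted p = 0.0651).

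Over time, 8 of 27 Wnt genes passed with CtrlGFP (29.6%, against 12.6% of all genes tested, 5.88% higher and 6.69% lower), Rspo3 and Porcn higher and Fzd8, Wnt7a, Tcf7l1, Axin2, Sfrp2 and Fzd7 lower. With Fezf2GFP 7 passed (25.9%, against 12.1%, 6.38% higher and 5.67% lower), Rspo3, Wnt7b and Dkk3 higher and Wls, Fzd9, Tcf7l1 and Fzd1 lower. Only Rspo3 and Tcf7l1 passed with both vectors, and since 0 of 27 interactions passed, the other changes are not shown to differ between the vectors. The arrays of both times did not overlap for 10 genes with CtrlGFP (37.0%, against 22.7% of all genes) and for 13 with Fezf2GFP (48.1%, against 26.2%). The medians of the 27 were -0.26 and -0.31, beside -0.02 and -0.01 for all genes. With CtrlGFP 5 passed without both control arrays that stood apart. Markers moved over time too. With CtrlGFP the oligodendrocyte lineage genes Olig1 (at least 18.3-fold, limma adjusted p = 0.00123) and Olig2 (3.80-fold, adjusted p = 0.00911) and the neuronal Tubb3 rose. With Fezf2GFP Olig1 differed over time by 2.23 without overlap (SE 0.715, limma adjusted p = 0.0629). Olig2 differed by 0.42 with that vector (SE 0.425, adjusted p = 0.628). Between the vectors at 48 h Olig1 differed by -1.46 with overlap (SE 0.66, adjusted p = 0.316). Olig2 differed there by -1.396 without overlap (SE 0.39, adjusted p = 0.0799). Of the 4 oligodendrocyte lineage markers the others were not tested. Pdgfra was above the dim level on 2 arrays (4.95 in CtrlGFP 24 h replicate 1 and 4.39 in CtrlGFP 48 h replicate 2), and Sox10 was dim on all 14. Also with CtrlGFP, the radial glia genes Nes and Slc1a3 and the intermediate progenitor genes Eomes, Neurog2, Btg2, Gadd45g and Mfap4 fell. Insm1, the other intermediate progenitor gene, had the opposite sign and did not pass. It differed over time by 0.17 with CtrlGFP (SE 0.23) and by 0.66 with Fezf2GFP (SE 0.23, limma adjusted p = 0.0908). With Fezf2GFP Neurod2 rose and Neurog2, Btg2, Gadd45g, Mfap4 and the Cajal-Retzius gene Ebf3 fell. Ebf3 was dim on all 4 Fezf2GFP arrays at 48 h, and Reln differed by 0.685 over time with Fezf2GFP (SE 0.675, limma adjusted p = 0.611). The part of these markers in the results was not tested. The 7 calls with Fezf2GFP were 3 when Fezf2GFP 24 h replicate 2 was left out, and 4 when replicate 3 of that group or Fezf2GFP 48 h replicate 1 was.

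Of 81 other Wnt pathway genes listed for comparison (beta-catenin and its destruction complex, Dishevelled, planar polarity and co-receptor genes, Groucho co-repressors and common targets), 78 were measured and 57 tested. At 24 h 1 rose and 1 fell (3.51%, against 1.06% of all genes), with 0 for the interaction. At 48 h 4 were called higher and 1 lower, where 3.13% of all genes passed; one of the 4, Tle2, could pass the filter only through the group where it is high, so this count is not read against the background. Draxin, a secreted axon repellent that also antagonises Wnt signalling, rose by 1.10 at 24 h (SE 0.21, limma adjusted p = 0.0212), and the 48 h value was 1.21 (SE 0.18, adjusted p = 0.00267). It stood at 10.10, 10.21 and 9.94 against 11.35, 11.22 and 10.96 at 24 h, and at 10.21, 10.23, 10.18 and 10.82 against 11.26, 11.65, 11.55 and 11.82 at 48 h. Its 24 h call ended without CtrlGFP 24 h replicate 1 (0.0578), 2 (0.0625) or 3 (0.0892), or Fezf2GFP 24 h replicate 1 (0.127) or 2 (0.0816), and the 48 h call passed in 25 of 25 alternative fits.

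Shisa2, which retains Frizzled and FGF receptors inside the cell, fell at 24 h (log2 fold change -1.56, SE 0.33, limma adjusted p = 0.044) and 48 h (-1.61, SE 0.29, adjusted p = 0.00876). It stood at 11.78, 12.19 and 12.24 with CtrlGFP and 9.74, 10.86 and 10.92 with Fezf2GFP at 24 h. Its levels at 48 h were 10.44, 10.85, 11.10 and 10.31 with CtrlGFP and 9.40, 8.92, 8.56 and 9.37 with Fezf2GFP. The 48 h call passed in 25 of 25 alternative fits. The 24 h call held in 9, and of the fits without 1 array in 3, those without CtrlGFP 48 h replicate 2 or 3 or Fezf2GFP 48 h replicate 3; without Fezf2GFP 24 h replicate 1 its adjusted p was 0.195. Sulf2, a sulfatase that edits the heparan sulfate on which Wnt ligands sit, rose by 3.52 at 48 h (SE 0.43, adjusted p = 0.000556), from 7.93, 6.59, 7.08 and 6.36 to 11.05, 10.28, 10.93 and 9.78.

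Prickle1, a planar polarity gene, rose by 2.18 at 48 h (SE 0.50, limma adjusted p = 0.0326), from 6.37, 4.12, 5.11 and 4.27 to 6.49, 6.40, 7.71 and 7.998. Its call held in 12 of 24 alternative fits and ended without CtrlGFP 24 h replicate 2 (0.0513), Fezf2GFP 24 h replicate 2 (0.0507), CtrlGFP 48 h replicate 2 (0.0825), 3 (0.0682) or 4 (0.105), or Fezf2GFP 48 h replicate 3 (0.087) or 4 (0.104). Tle2, a Groucho co-repressor, was above the dim level on 3 arrays only, all of them Fezf2GFP at 48 h, so that it could pass the filter through this group alone. It stood at 4.76, 3.72, 4.83 and 4.37 there and at 3.48, 2.93, 3.14 and 3.52 with CtrlGFP at 48 h, and its call is given as a description only.

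**Figure D4:**
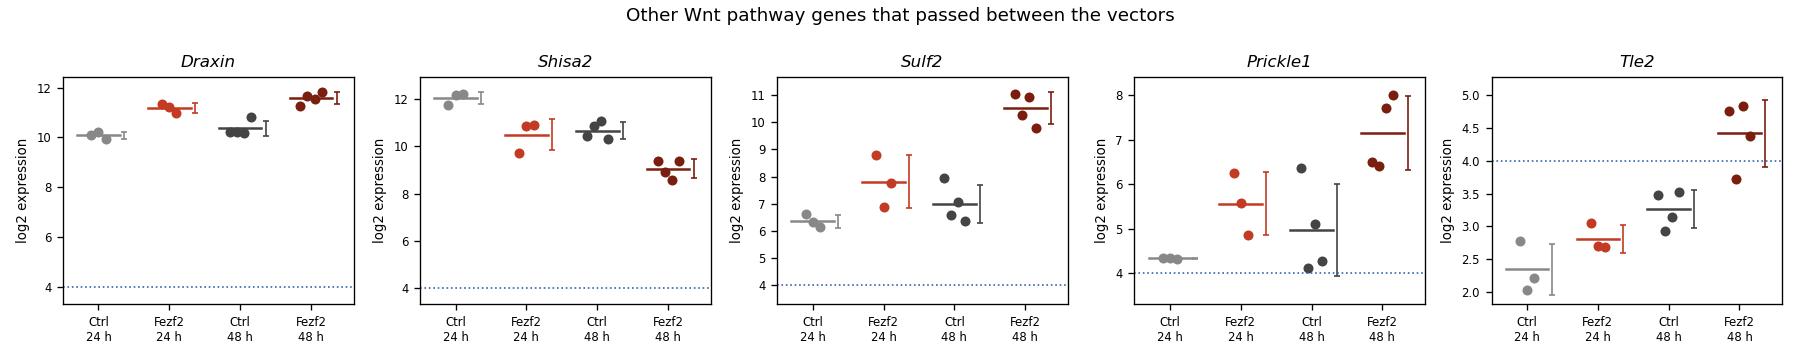
Level on each array (points, log2 expression) of the 5 other Wnt pathway genes that passed between the vectors, with group means (lines) and standard deviations (bars) for n = 3 arrays per vector at 24 h and n = 4 at 48 h. The dotted line is the dim level of 4, which Tle2 exceeds on 3 arrays. Draxin is higher and Shisa2 lower with Fezf2GFP at both times.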

How the data were processed

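Expression was measured on 14 Affymetrix mouse arrays of GFP-sorted cells. The authors deposited log2 values (the scale was read from their range) made with GCRMA, per the submitters' processing notes; the sources used here give no version or settings. RNA had been amplified linearly, 2 times over, per the labels' protocols. Of 45037 probe sets, 34945 were paired with 1 gene symbol; per symbol the one with the highest mean was used. Genes above 4 on at least 3 arrays were tested (10295 of 18193). Using limma 3.58.1 (lmFit, eBayes; R 4.3.3), group means were estimated from all 14 arrays, with 10 residual degrees of freedom and 5 contrasts. Adjusted p-values are Benjamini-Hochberg values over all genes tested, with a threshold of 0.05; errors are limma's standard errors. The number of arrays limits the precision. The labels do not say that replicate arrays represent different litters: p-values measure only how these samples vary, which may be technical variation.

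Named genes were those passing in any comparison, up to 4 further genes per role by size of the vector effect, and 12 fixed by name. The members, lists and this rule were chosen with earlier results of these data known. The functions were tested on simulated data. Alternatives were no filter, a dim level of 6, quantile normalization, median centring, only the groups compared, array weights (gene-by-gene method), an intensity trend with robust prior, the mean over probe sets, removal of the trend with gene span (99.7% of tested genes had one), leaving out both control arrays that stood apart, the replicate number as a block and leaving out each array.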

Additional observations from a re-analysis of the deposited data

Results flagged for a closer look

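In the groups of 4 arrays, 54 sets of values of tested Wnt genes were searched for an array far from the other 3, and 4 were found; chance gives about 1 in 20. Wls in Fezf2GFP 48 h replicate 4 stood at 7.26, with the others between 4.05 and 4.51, and in CtrlGFP 48 h replicate 1 at 4.21, with the others between 3.64 and 3.72. Dkk2 in CtrlGFP 48 h replicate 2, an array that stood apart across genes, was 5.52, with the others between 4.04 and 4.05. Nkd1 in CtrlGFP 48 h replicate 4 was 5.62, with the others between 5.88 and 5.92. No Wnt gene was found by the interaction in the fit to all arrays, or by vector effects of opposite sign without overlap at both times.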

How the results depend on the processing

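No called gene changed direction in the alternative fits that could test it: 25 in most cases, 24 for Fzd9 and Prickle1 and 21 for Tle2, which 3 of the fits without 1 array did not test. The count of Wnt genes at 24 h, 3 as reported, was 1 when only the groups compared were fitted and 9 with array weights, which called 873 genes in all against 109. At 48 h it stayed between 5 and 7 without any 1 array and was 6 as reported, with 8 under array weights and 8 without both control arrays that stood apart. For the interaction, 0 as reported, it was 3 with array weights (Sfrp2, Wnt7a and Wls). For CtrlGFP over time, 8 as reported, it was 5 without both control arrays that stood apart and 12 with array weights. For Fezf2GFP over time, 7 as reported, it was 4 with no filter, 4 when only the groups compared were fitted and 13 with array weights. Without 1 array the ranges were 2 to 3 at 24 h, 0 to 1 for the interaction, 6 to 9 for CtrlGFP over time and 3 to 7 for Fezf2GFP over time.

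Same-numbered arrays of both vectors had deviations from their group means correlating at -0.056 to 0.318. So few pairs cannot decide whether the numbers pair the arrays, and the fit reported here did not pair them. With the replicate number as a block, which joins a number across both times, the counts were 3 at 24 h, 6 at 48 h, 0 for the interaction, 6 and 5 over time. The calls of Axin2 (adjusted p = 0.0682) and Shisa2 (0.0836) at 24 h, Prickle1 at 48 h (0.0652), Fzd7 (0.0602) and Porcn (0.066) with CtrlGFP, and Fzd9 (0.0641) and Tcf7l1 (0.118) with Fezf2GFP ended, and that of Fzd1 at 24 h was gained (0.0476). The cause of these differences was not tested. Signal over background limits the 26 genes that were dim on all arrays, and Wnt6, which was above the dim level on 2; no change was tested for them.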
